A study of Mus musculus with 29 samples.

Results

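The genes described here are the mouse Zfp genes, the numbered members of the zinc finger protein family, in 3T3-L1 cells as they became fat cells after treatment with KDM5-C70 or vehicle. A gene was counted as a member when its symbol was Zfp followed only by a number and its mean level was 5 CPM (read counts scaled to the total of each sample) or more over the 29 RNA-seq samples. Of the 11959 genes in the count table, 297 had such a symbol and 229 of these reached the level, leaving 68 below it. The members were thus chosen by their symbol and mean level, and the level is given only as a description. Just inside the limit were Zfp747 at a mean of 5.21 CPM and Zfp667 at 5.31 CPM, and just outside it were Zfp14 at 4.94 CPM and Zfp341 at 4.83 CPM.

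Most Zfp proteins carry arrays of C2H2 fingers, small domains in which a pair of cysteines and a pair of histidines hold a zinc ion and which read DNA, or in some members RNA. Many also carry a KRAB domain near the amino terminus, which recruits the corepressor TRIM28 with the H3K9 methyltransferase SETDB1 and silences retroelements and imprinted loci, whereas members without KRAB act as activators, repressors, chromatin adaptors or RNA-binding proteins. In the fat lineage, Zfp423 is known as a preadipocyte determination factor, Zfp521 as an inhibitor of adipogenesis, Zfp467 as a promoter of adipogenesis and Zfp516 as an activator of the brown fat program.

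3T3-L1 is a clonal mouse line of preadipocytes that differentiate in culture. Cells were given 10 µM KDM5-C70 (C70, an inhibitor of the KDM5 family of H3K4 demethylases) or the vehicle DMSO from day −2, when they were confluent, to day 0, and received no compound after that. Differentiation medium was used from day 0 to day 2 and adipocyte medium after it. RNA was taken at days 0, 1, 2 and 7 from 3 vehicle and 4 C70 samples at each of the first 3 time points and from 4 of each at day 7, so the 8 groups differ in pretreatment and in the day of harvest, and with it in the medium received by then, and share the cell line. Nothing in the labels says that replicates were separate cultures, so P values measure the spread between these samples, which may be technical. Total counts ran from 16320275 to 24037170 per sample.

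All samples are labelled adipocyte, including those of day 0, which had not yet received differentiation medium. The summed level of 7 adipocyte markers (Adipoq, Fabp4, Plin1, Cidec, Lpl, Cd36 and Pparg) was 1279 to 1401 CPM in day 0 vehicle samples and 24388 to 28428 CPM in day 7 vehicle samples. At day 2 it was 13716 to 15211 CPM with C70 against 23776 to 24619 CPM with vehicle, and at day 7 the groups overlapped, at 26838 to 29527 CPM with C70. The summed level of 6 preadipocyte markers (Dlk1, Pdgfra, Pdgfrb, Col1a1, Thy1 and Ly6a) fell from 14370 to 15089 CPM at day 0 to 991 to 1429 CPM at day 7 in vehicle samples, and was 2543 to 2961 CPM in day 7 C70 samples. None of the 6 markers of other cells (Ptprc, Lyz2, Pecam1, Epcam, Krt8 and Myod1) was in the table. The part of these marker differences in the Zfp results was not tested, and in bulk RNA fewer cells of a type and less RNA per cell cannot be told apart.

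The members were modestly expressed. Their median mean level was 17.5 CPM against 32.4 CPM for all genes of the table. Of the 229, 228 were protein coding in GENCODE M21 and 1, Zfp469, was annotated there as a long intergenic RNA. Translation of the coding sequences found a KRAB pattern in 109 members and none in 119. The median number of C2H2 fingers was 12 in members with the pattern and 7 in members without it, and the highest number was 36, in Zfp142. In 6 members (Zfp36, Zfp330, Zfp365, Zfp503, Zfp703 and Zfp839) no C2H2 finger matched. Per kb of exon, the median level was 2.66 CPM for members with a KRAB pattern and 4.95 CPM for members without it. The 3 members of highest mean level were Zfp106, an RNA-binding protein, at 336 CPM (32.2 CPM per kb), the ubiquitin ligase Zfp91 at 236 CPM (23.5 CPM per kb) and the mitotic spindle protein Zfp207 at 180 CPM (27 CPM per kb). All 3 lacked a KRAB pattern.

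Zfp genes lie in families along the chromosomes. With neighbours joined across gaps of under 300 kb, 100 members, of which 68 had a KRAB pattern, fell into 20 runs of 3 or more, and 103 members stood alone. Chromosome 7 held 55 members and chromosome 17 held 31, and the largest run had 14 members at chr17:21383748-22456689 (GRCm38). The gene spans of 78 members, introns included, overlapped a gene on the opposite strand, and overlap of their exons was not counted. The libraries were strand-specific, but whether the counting used strand is not given in the sources used here. Where exons of such a pair do overlap, their reads may therefore not be separated. Zfp703 and Zfp677 are among the 78. Members of such families resemble each other in sequence, and how reads matching several of them were counted is likewise not given.

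Promoters are shown for the 5 of the 7 members called higher with C70 on 3 or more days that have an entry in the RefSeq table (GRCm38.p6), since their calls repeated over the most days. Each run is 300 bases, from 250 before to 50 after the annotated start, read 5′ to 3′ on the gene's strand in lower case, with every CG in capitals. Zfp57 has 3 annotated starts, and the one at the start of its gene model is shown.
Zfp57 promoter, chr17:37000913-37001212, plus strand: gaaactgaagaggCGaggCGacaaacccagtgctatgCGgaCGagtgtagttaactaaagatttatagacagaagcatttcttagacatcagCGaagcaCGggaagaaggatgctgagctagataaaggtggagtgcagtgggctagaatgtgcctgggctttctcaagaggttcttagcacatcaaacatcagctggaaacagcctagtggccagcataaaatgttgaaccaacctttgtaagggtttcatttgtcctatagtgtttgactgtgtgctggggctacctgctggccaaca
Zfp658 promoter, chr7:43562120-43562419, plus strand: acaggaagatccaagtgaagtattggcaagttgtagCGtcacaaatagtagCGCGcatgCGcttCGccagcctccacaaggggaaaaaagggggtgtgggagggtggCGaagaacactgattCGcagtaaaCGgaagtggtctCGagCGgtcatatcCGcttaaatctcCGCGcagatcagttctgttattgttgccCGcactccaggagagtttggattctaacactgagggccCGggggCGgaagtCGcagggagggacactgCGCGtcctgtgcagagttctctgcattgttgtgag
Zfp719 promoter, chr7:43579336-43579635, plus strand: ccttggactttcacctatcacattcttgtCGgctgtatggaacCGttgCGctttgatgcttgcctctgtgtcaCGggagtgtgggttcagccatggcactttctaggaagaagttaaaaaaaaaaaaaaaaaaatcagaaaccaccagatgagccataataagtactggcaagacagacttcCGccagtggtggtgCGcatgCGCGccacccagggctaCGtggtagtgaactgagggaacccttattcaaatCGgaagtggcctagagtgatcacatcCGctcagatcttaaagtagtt
Zfp677 promoter, chr17:21383498-21383797, plus strand: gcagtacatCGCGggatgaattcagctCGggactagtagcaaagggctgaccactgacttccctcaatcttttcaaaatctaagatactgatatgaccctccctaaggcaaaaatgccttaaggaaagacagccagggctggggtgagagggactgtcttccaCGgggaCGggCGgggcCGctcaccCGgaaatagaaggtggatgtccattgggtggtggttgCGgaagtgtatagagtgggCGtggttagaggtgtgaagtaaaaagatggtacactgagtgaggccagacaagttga
Zfp365 promoter, chr10:67912613-67912912, minus strand: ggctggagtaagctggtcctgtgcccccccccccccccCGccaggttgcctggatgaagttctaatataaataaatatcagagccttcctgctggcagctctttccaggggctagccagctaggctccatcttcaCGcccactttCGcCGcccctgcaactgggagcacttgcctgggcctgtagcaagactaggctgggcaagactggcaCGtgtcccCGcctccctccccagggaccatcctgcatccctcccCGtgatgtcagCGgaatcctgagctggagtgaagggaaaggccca

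These 5 promoters held 6 CG in Zfp57, 19 in Zfp658, 11 in Zfp719, 10 in Zfp677 and 8 in Zfp365. The other two Zfp57 starts held 9 and 4. RefSeq gave promoters for 186 of the 229 members, 230 in all, with a median of 16 CG. The median was 11 CG for members with a KRAB pattern and 21 for members without it, and 21 for all promoters of genes in the count table. The GC box letters GGGCGG, searched on both strands, were in 35.1% of promoters of members with a KRAB pattern, 63.9% of those without it and 63.9% of those of the count table. TATAAA, the TATA box letters, was in 7.21% of promoters of members with a KRAB pattern and 6.94% of those of the count table. TGCCGC, the letters that ZFP57 binds when methylated, was in 17.4% of member promoters and 19.6% of those of the count table, and in none of the 5 printed here. For members higher with C70 on 2 or more days, 15 promoters had a median of 10 CG, and for members higher on no day, 178 promoters had a median of 17. A match is a description and not a bound site, and these counts carry no test.

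The course without inhibitor was followed first, over vehicle samples of consecutive days. A gene was called when the adjusted P of edgeR's quasi-likelihood test was under 0.05 and the log2 fold change was over 0.32 in size. From day 0 to day 1, 34 members rose and 65 fell, where 26.2% of all genes rose and 27.9% fell. From day 1 to day 2, 16 members rose and 65 fell (22.3% and 22% of all genes). From day 2 to day 7, 26 rose and 78 fell (26.6% and 26.7% of all genes). Their median log2 fold changes were −0.048, −0.18 and −0.18, against 0.0082, 0.0082 and −0.0013 for all genes. With 1 sample left out at a time, these medians ranged from −0.056 to −0.014, −0.21 to −0.16 and −0.20 to −0.12. For members of 10 CPM or more the first was −0.012. The steps share samples, so they are given side by side. Of the 109 members with a KRAB pattern, 17 rose and 27 fell at the first step, 3 rose and 39 fell at the second and 6 rose and 45 fell at the last. Of the 119 without it, 17 rose and 37 fell, then 13 rose and 25 fell, and then 20 rose and 32 fell. After quantile normalization the median of the step from day 0 to day 1 was 0.012, on the other side of 0, with 45 members higher and 49 lower. Without day 7 vehicle replicate 1, 27 members rose and 66 fell from day 2 to day 7.

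Zfp36, the mRNA decay factor tristetraprolin, was the only member that rose at all 3 vehicle steps, as did 4.08% of all genes. Its normalised level (CPM after edgeR's TMM scaling, the scale of all gene values from here) was 23.04, 23.4 and 26.6 CPM at day 0, 46.3, 47.2 and 48.0 CPM at day 1, 58.3, 59.8 and 64.1 CPM at day 2 and 82.3, 75.9, 77.9 and 82.1 CPM at day 7. No 2 consecutive days overlapped. With C70 its means were 23.6, 50.7, 58.6 and 80.9 CPM, and on no day did it pass the test against vehicle. The rise from day 1 to day 2 (0.36) fell under the fold threshold after quantile normalization (0.30). In the other direction, 14 members (6.11%) fell at every step, against 4.84% of all genes, among them Zfp57, Zfp521, Zfp462, Zfp827, Zfp30 and Zfp608. The last fall of Zfp521 (−0.38) was under the fold threshold without day 7 vehicle replicate 2 (−0.31). The largest fall of the first step was that of Zfp57, by 2.51 on the log2 scale (SE 0.098, adjusted P = 4.0e-20), followed by Zfp41 (−2.38), Zfp618 (−2.36) and Zfp365 (−2.18). The largest rise was that of the KRAB gene Zfp791, from 1.95 to 2.62 CPM at day 0 to 13.8 to 14.4 CPM at day 1 (log2 2.61, SE 0.13, adjusted P = 7.0e-18). At the last step Zfp467 rose by 1.66 and Zfp703 by 1.27, and Zfp367 fell by 1.85 and Zfp658 by 1.72.

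C70 moved few Zfp genes at day 0 and more later, and from day 1 most calls were higher. Over all genes the calls were likewise fewest at day 0 (1073, then 2564, 3642 and 2287), and most were higher on every day. At day 0, 4 members were higher with C70 and 13 lower (5.89% and 3.09% of all genes), which is 1.75% and 5.68% of the members. At day 1, 15 were higher and 4 lower (13.6% and 7.8% of all genes). At day 2, 29 were higher and 8 lower (16.9% and 13.6% of all genes). At day 7, 47 were higher and 1 lower (14.3% and 4.85% of all genes), or 20.5% and 0.437% of the members. So the share of members called higher was below the background at days 0, 1 and 2 and above it at day 7, and the share called lower was above it at day 0 and below it after. The day 7 order turned under quantile normalization, where 8.73% of the members and 10.7% of all genes were higher, and with a fold change over 1.5, at 3.49% and 7.93%. The order of the day 0 falls also turned, to 8.73% and 8.91% with no fold change threshold and 0.437% and 0.527% with a fold change over 1.5, as did that of the day 2 rises with no threshold (26.2% and 25.3%). The median log2 fold changes of the members were −0.047, 0.034, 0.077 and 0.11 at days 0, 1, 2 and 7, against −0.00043, −0.0060, −0.0036 and 0.0038 over all genes. Fold changes above 0 were found for 77, 141, 141 and 166 of the 229 members.

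The counts themselves also depended on the scaling and on single libraries. With limma on quantile normalized values, 12 members were higher and 7 lower at day 1 with a median of −0.0077, on the other side of 0. At day 2 they were 22 and 15, and at day 7 they were 20 and 5 with a median of 0.023. Over all genes the same scaling gave 1368 higher and 1319 lower at day 1, against 1631 and 933. At day 2 it gave 1806 higher and 1960 lower, against 2021 and 1621. These were 15.1% and 16.4% of all genes, where the members gave 9.61% and 6.55%. At day 7 it gave 1274 and 831 over all genes, against 1707 and 580. Day 7 vehicle replicate 1 stood apart, with a mean log2 level over the members of −0.58 relative to day 0 vehicle, where its group had a mean of −0.47 ± 0.070 (SD, n = 4). Without it, 38 members were higher and 2 lower at day 7, with a median of 0.071, and the 16.6% higher remained above the 14.2% of all genes. Leaving out day 1 vehicle replicate 1 reduced the members lower at day 1 from 4 to 2 and raised those higher from 15 to 21. These 21 were 9.17% of the members, still below the 13.9% of all genes. The 1 lower at day 7 became 2 without any 1 of 5 day 7 libraries, named with Zfp706 further on. The 68 Zfp genes under the level limit gave 1 higher and 7 lower at day 0 (1.47% and 10.3%) and 9 higher at day 1 (13.2%). They gave 13 higher and 5 lower at day 2 (19.1% and 7.35%) and 18 higher at day 7 (26.5%). Shares of all genes were 5.89%, 13.6%, 16.9% and 14.3% higher on the 4 days and 3.09%, 7.8%, 13.6% and 4.85% lower.

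**Figure D1:**
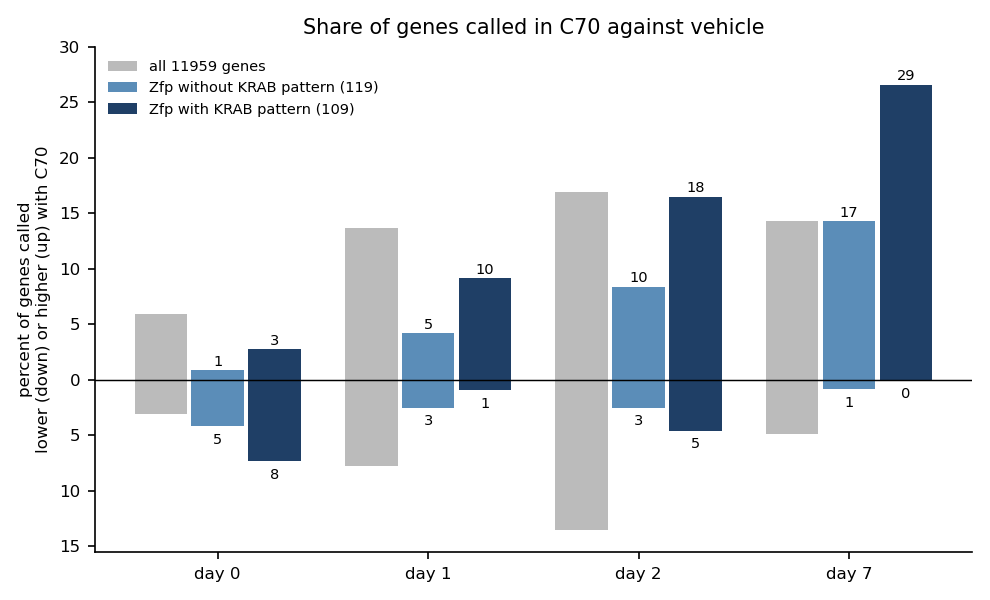
Percent of genes called higher (upward bars) or lower (downward bars) with C70 against vehicle on each day, for all 11959 genes of the table and for the Zfp members with and without a KRAB pattern, with the number of members above or below each bar. At day 7 the bar of 29 higher members with a KRAB pattern stands above that of all genes, and at day 1 the upward bars of both Zfp groups stand below it.

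Members with a KRAB pattern held most of the day 7 calls, but not under quantile normalization. At day 7, 29 of the 109 were higher (26.6%, against 14.3% of all genes) and none was lower by edgeR, with 50 at an unadjusted P under 0.05 in either direction and none lower by DESeq2 or limma. Of the 119 without the pattern, 17 were higher (14.3%) and 1 was lower. Median log2 fold changes with C70 at days 0, 1, 2 and 7 were −0.065, 0.051, 0.11 and 0.17 with the pattern and −0.039, 0.012, 0.047 and 0.039 without it. At day 0, 3 members with the pattern were higher and 8 lower (5.89% and 3.09% of all genes), at day 1 there were 10 and 1 (13.6% and 7.8%), and at day 2 there were 18 and 5 (16.9% and 13.6%). Under quantile normalization the day 7 counts were 9 higher with the pattern and 10 higher with 5 lower without it, where the median turned to −0.0066, and 10.7% of all genes were higher. Without day 7 vehicle replicate 1 they were 22 higher and 1 lower with the pattern and 15 higher and 1 lower without it.

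The mean over members was also followed in each sample. Over members with a KRAB pattern, the mean log2 level relative to day 0 vehicle was −0.31 ± 0.015 (SD, n = 3) in day 2 vehicle and −0.20 ± 0.014 (SD, n = 4) in day 2 C70 samples. At day 7 it was −0.58 ± 0.089 in vehicle samples, from −0.71 to −0.51, and −0.38 ± 0.031 in C70 samples, from −0.42 to −0.35 (SD, n = 4 each). The groups did not overlap on either day. Over members without the pattern, the day 7 means were −0.35 ± 0.055 and −0.27 ± 0.025, again without overlap. The mean over all genes did not overlap between the groups either, at −0.054 to −0.036 in vehicle and 0.014 to 0.021 in C70 samples at day 7, nor on any other day, so the lack of overlap is not particular to the members. At day 0 the ranges of the members with the pattern overlapped, with −0.041 to 0.043 in vehicle and −0.12 to −0.025 in C70 samples. Those of the members without it did not, with the C70 samples lower, at −0.016 to 0.021 in vehicle and −0.057 to −0.024 in C70 samples.

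**Figure D2:**
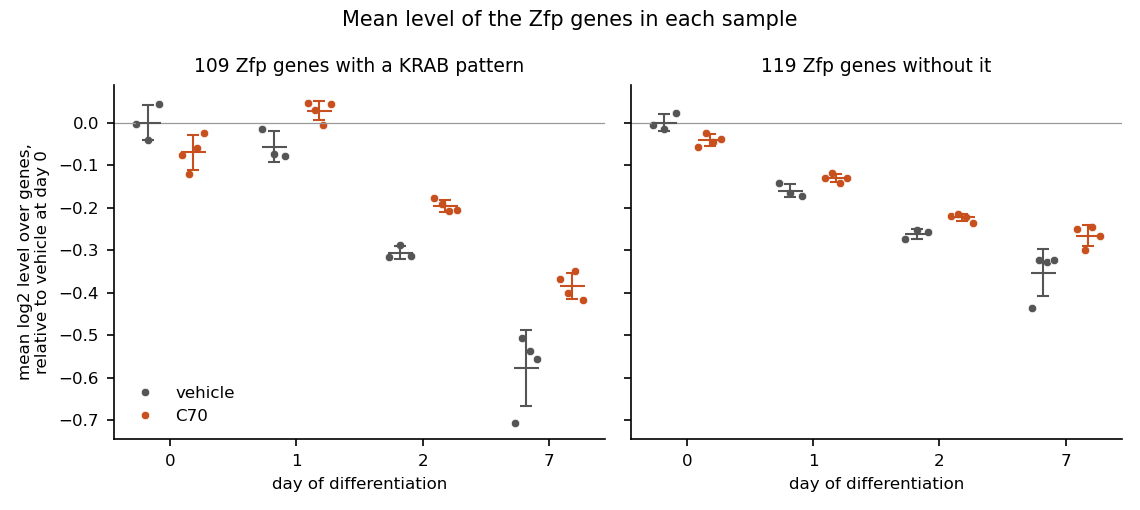
Mean log2 normalised level over 109 Zfp members with a KRAB pattern (left) and 119 without it (right) in every sample, relative to the vehicle mean of day 0, against the day of differentiation. Points are samples, and the horizontal lines and bars give the mean and SD of each group, with the lowest point of day 7 vehicle at −0.71 on the left and −0.44 on the right.

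Across the 4 days, 82 members (35.8%) were called on at least 1 day, against 44.5% of all genes. Of the 229, 64 were higher on some day (27.9%, against 26.3% of all genes), 22 lower on some day (9.61% and 21%) and 4 changed direction (1.75% and 2.83%). Calls repeated for 22 members that were higher on 2 or more days (9.61% and 14.8%) and 4 that were lower on 2 (1.75% and 7.04%). Only Zfp57 and Zfp703 were higher on all 4 days, as were 2.06% of all genes. The 5 members higher at days 1, 2 and 7 but not at day 0 were Zfp462, Zfp658, Zfp719, Zfp365 and Zfp677.

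**Figure D3:**
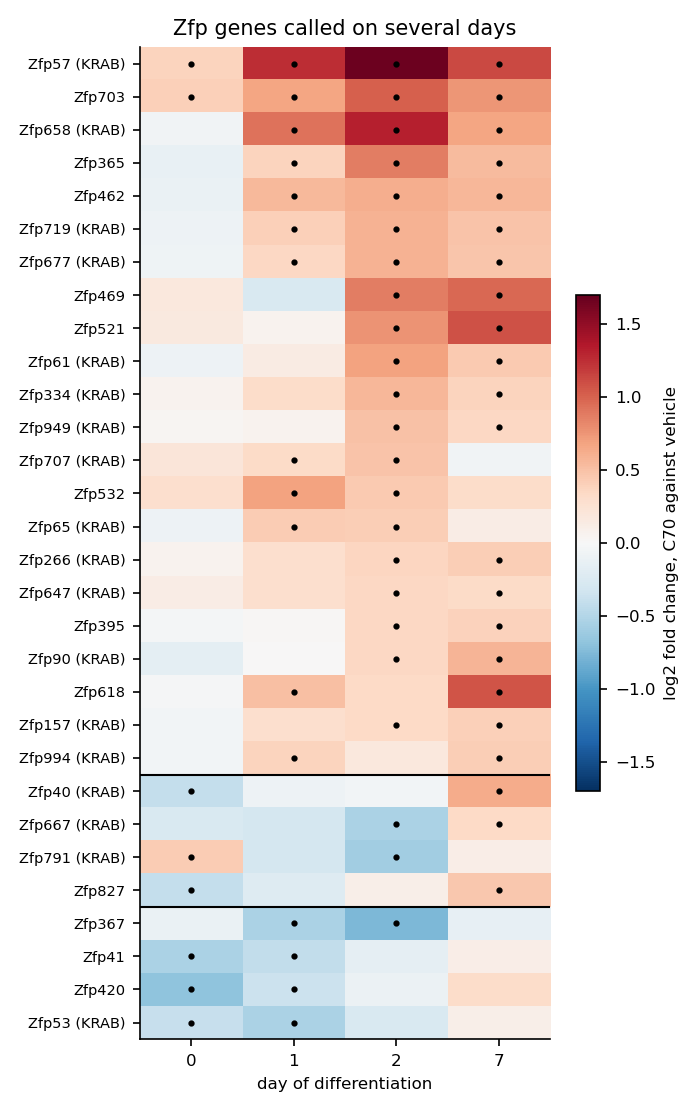
Log2 fold change of C70 against vehicle on each day (colour) for the 22 members higher on 2 or more days, the 4 called in both directions and the 4 lower on 2 days, separated by lines. Dots mark calls, and the strongest colour is Zfp57 at day 2, with a log2 fold change of 1.67.

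Zfp57 (ENSMUSG00000036036, chr17:37001163-37010635, GRCm38) encodes a KRAB protein that keeps DNA methylation at imprinted loci. At day 0 it was at 40.2, 35.2 and 38.3 CPM in vehicle and 45.5, 50.5, 48.8 and 52.5 CPM in C70 samples. At day 1 it had dropped to 7.94, 5.68 and 6.36 CPM in vehicle and 15.98, 17.6, 15.2 and 14.9 CPM in C70 samples. At day 2 the values were 3.96, 3.60 and 3.12 CPM against 11.1, 10.3, 11.97 and 12.2 CPM. At every day all C70 samples were above all vehicle samples, while both groups fell with time. By day 7 it was at 1.52 to 2.09 CPM in vehicle and 3.43 to 4.59 CPM in C70 samples. The log2 fold changes were 0.38 (SE 0.075, adjusted P = 0.00041), 1.26 (SE 0.10, adjusted P = 2.0e-11), 1.67 (SE 0.12, adjusted P = 4.4e-13) and 1.12 (SE 0.16, adjusted P = 8.3e-07). The difference grew from day 0 to day 1 by 0.88 (adjusted P = 5.6e-06), as an interaction term in the same fit.

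Zfp703 (ENSMUSG00000085795, chr8:26977325-26981461) is a corepressor of the NET family whose protein gave no C2H2 match, and its counterpart Zfp503 belongs to the same family. Its vehicle level fell and then returned, at 58.2, 67.0 and 59.5 CPM at day 0, 22.04, 23.04 and 23.99 CPM at day 2 and 58.6, 50.04, 55.6 and 58.1 CPM at day 7. C70 samples also fell and returned, at a higher level, with 80.4, 86.6, 86.5 and 71.8 CPM at day 0, 47.0, 48.1, 44.4 and 46.5 CPM at day 2 and 90.1, 99.8, 92.1 and 92.5 CPM at day 7. The groups overlapped on no day. The log2 fold change was 0.40, 0.67, 1.01 and 0.75 at days 0, 1, 2 and 7, with SE 0.059 to 0.071 and adjusted P from 2.0e-05 to 3.9e-13 by edgeR. The difference grew by 0.34 from day 1 to day 2 (SE 0.097, adjusted P = 0.012), a call that fell under the fold threshold without day 1 vehicle replicate 2 (0.31), day 1 C70 replicate 4 (0.30) or day 2 vehicle replicate 1 (0.31) and under quantile normalization (0.29). Zfp503 went the other way at day 2, at 80.6 ± 6.2 CPM (SD, n = 4) with C70 against 117 ± 2.9 CPM (SD, n = 3) with vehicle (log2 −0.53, adjusted P = 1.7e-08), and at day 7 it was at 95.7 and 90.8 CPM.

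Zfp658 (ENSMUSG00000056592, chr7:43562256-43575461) and Zfp719 (ENSMUSG00000030469, chr7:43579610-43593235) are KRAB genes side by side on chromosome 7. Zfp658 did not separate at day 0, with 11.3 to 12.2 CPM in vehicle and 11 to 12 CPM in C70 samples. At day 1 it was at 11.5, 11.7 and 13.8 CPM in vehicle and 21.4, 21.5, 25.4 and 25.3 CPM in C70 samples, and at day 2 at 4.27, 5.16 and 4.55 CPM against 11.5, 11.2, 10.95 and 13.1 CPM. At both days the C70 samples were all higher. The log2 fold changes were −0.065, 0.92, 1.32 and 0.67 (SE 0.089, 0.084, 0.10 and 0.17), the last 3 called, with adjusted P from 4.7e-12 to 0.0016. Zfp719, chosen after its values were seen as was its neighbour Zfp715, had a log2 fold change of −0.09, 0.41, 0.60 and 0.48. Its day 2 levels were 8.86, 8.92 and 8.49 CPM in vehicle and 14.2, 12.3, 13.7 and 12.9 CPM in C70 samples, which did not overlap. Zfp715, the third gene of the run, had log2 fold changes of 0.13, 0.19 and 0.18 at days 1, 2 and 7 and was not called.

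Zfp365, a centrosome protein without a C2H2 match, dropped steeply in both arms. Vehicle levels were 43.7, 50.4 and 50.1 CPM at day 0 and 4.63, 4.30 and 4.71 CPM at day 2, where C70 samples were at 8.86, 8.10, 7.96 and 8.35 CPM. The C70 samples were all higher at days 1, 2 and 7, by 0.37, 0.88 and 0.54 on the log2 scale (adjusted P = 0.00083, 4.0e-08 and 8.5e-05). Zfp677, at the start of the 14-gene run on chromosome 17, was at 3.64, 3.56 and 3.89 CPM in vehicle and 5.92, 5.40, 5.27 and 5.58 CPM in C70 samples at day 2. Its log2 fold changes at days 1, 2 and 7 were 0.35, 0.59 and 0.47, and the day 1 call was lost without day 1 C70 replicate 4 (0.31) and under quantile normalization (0.25, adjusted P = 0.091). Quantile normalization also took the day 7 call of Zfp677 (0.26, adjusted P = 0.057).

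**Figure D4:**
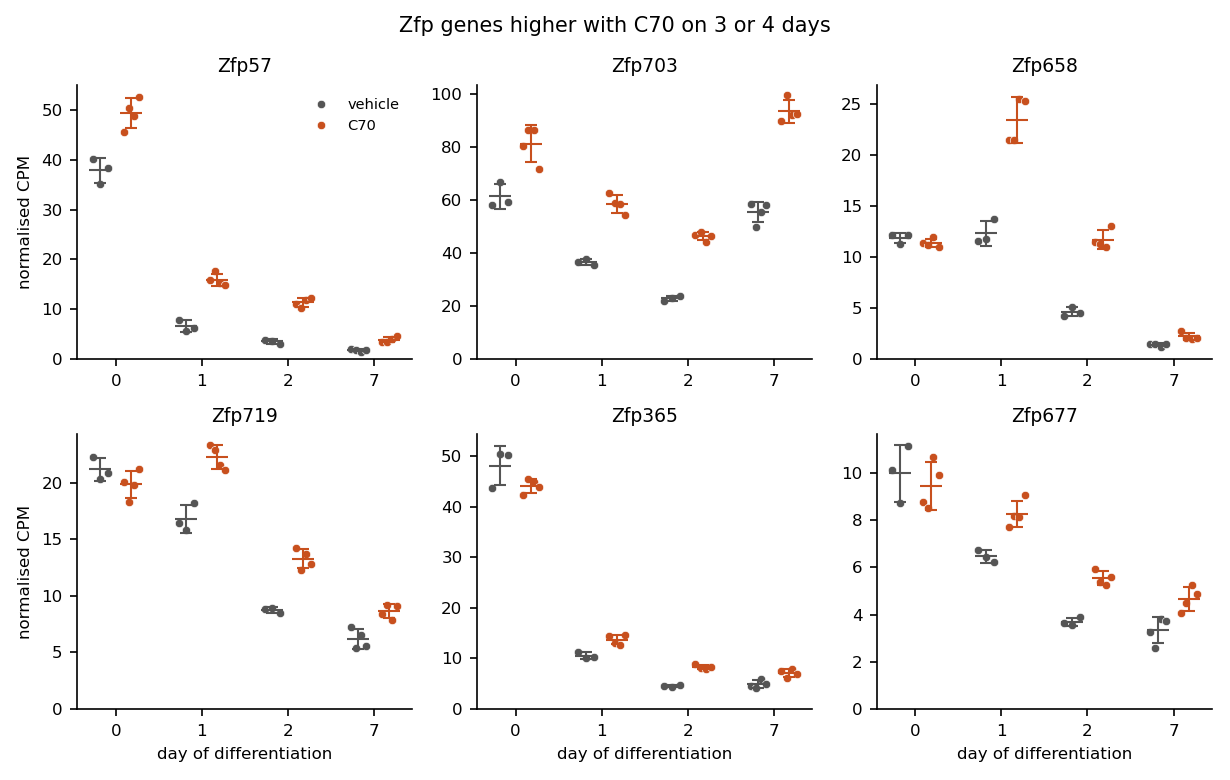
Normalised CPM of the 6 Zfp genes higher with C70 on 3 or 4 days other than Zfp462, by day, with each sample as a point and lines for the mean and SD of vehicle (grey) and C70 (orange) samples. Zfp57 and Zfp365 fall with time in both groups, and Zfp703 falls to day 2 and returns by day 7.

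On the 4 days 13, 4, 8 and 1 members were lower with C70, where 3.09%, 7.8%, 13.6% and 4.85% of all genes were. Under quantile normalization 14, 7, 15 and 5 were lower, with the highest number at day 2 in place of day 0. All genes then gave 3.39%, 11%, 16.4% and 6.95%, and the members gave 6.11% at day 0 and 6.55% at day 2. Day 2 also held the highest number with no fold change threshold and with a fold change over 1.5. There 11.4% and 1.31% of the members were lower, against 25.4% and 4.67% of all genes. The largest falls at day 0 were those of Zfp420 (log2 −0.69, SE 0.13, adjusted P = 0.00036), Zfp110 (−0.55), Zfp41 (−0.54), Zfp692 (−0.46), Zfp563 (−0.42) and Zfp661 (−0.42). Zfp41 was at 64.3, 56.2 and 62.5 CPM in vehicle and 39.7, 41.5, 44.4 and 42.6 CPM in C70 samples, without overlap (adjusted P = 1.8e-05). The KRAB gene Zfp110 was at 30.9, 28.5 and 30.6 CPM against 20.6, 21.3, 21.5 and 19.04 CPM (adjusted P = 4.1e-07). At day 1 the log2 fold change of Zfp110 was −0.16, and the difference had moved by 0.39 (adjusted P = 0.0036), a change that fell under the fold threshold without day 1 C70 replicate 2 (0.31). Zfp41 was called at −0.41 at day 1 with overlapping groups, at 9.37 to 14.1 CPM and 7.76 to 9.70 CPM. The day 0 calls of Zfp692 (−0.46), Zfp53 (−0.40) and Zfp661 (−0.42) were each lost when single libraries were left out. Without day 0 vehicle replicate 1 Zfp692 was at −0.39 (adjusted P = 0.071) and Zfp53 at −0.34 (adjusted P = 0.12). Without day 0 C70 replicate 2 Zfp53 was at −0.27 (adjusted P = 0.098), and without day 0 vehicle replicate 3 Zfp661 was at −0.32 (adjusted P = 0.066). At day 1 the calls of Zfp41 (−0.26, adjusted P = 0.086) and Zfp420 (−0.25, adjusted P = 0.15) were lost without day 1 vehicle replicate 1, and that of Zfp420 also without day 1 C70 replicate 2 (−0.31, adjusted P = 0.063).

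The 4 members higher at day 0 were Zfp846 (0.47), Zfp791 (0.43), Zfp703 and Zfp57. Zfp791 was at 2.62, 2.34 and 1.95 CPM in vehicle and 3.45, 3.264, 3.08 and 2.71 CPM in C70 samples, and its adjusted P of 0.038 rose to between 0.060 and 0.21 when any 1 of 5 libraries was left out (day 0 vehicle replicates 2 and 3 and day 0 C70 replicates 1, 2 and 3), with log2 fold changes of 0.32 to 0.43 against 0.43 with all libraries. Under quantile normalization it was at 0.32 (adjusted P = 0.057). At day 2 it was lower, at 8.05, 8.06 and 7.16 CPM in vehicle and 5.82, 5.34, 5.69 and 3.84 CPM in C70 samples (log2 −0.59, SE 0.11, adjusted P = 4.6e-05). Zfp367 was lower at days 1 and 2. At day 2 its vehicle samples were at 9.76, 9.50 and 11.2 CPM and its C70 samples at 5.76, 6.52, 5.39 and 6.04 CPM (log2 −0.77, SE 0.10, adjusted P = 1.5e-07). At day 7 both groups were between 2.22 and 3.04 CPM and overlapped. At day 7 the only member called lower was Zfp706, known as a repressor of Klf4 in embryonic stem cells. It was at 177.5, 160.1, 158.8 and 153.4 CPM in vehicle and 124.1, 132.3, 121.1 and 128.2 CPM in C70 samples, without overlap (log2 −0.36, SE 0.045, adjusted P = 1.4e-07). Without day 7 vehicle replicate 1 its log2 fold change was −0.31, under the fold threshold. The count of 1 lower at day 7 became 2 when any 1 of 5 day 7 libraries was left out, vehicle replicates 1, 2 and 3 and C70 replicates 2 and 4.

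Of the 10 listed members with known roles in adipogenesis, 5 were higher with C70 at day 7 (Zfp521, Zfp516, Zfp395, Zfp30 and Zfp467) and 2 at day 2 (Zfp521 and Zfp395), where 14.3% and 16.9% of all genes were higher. None was called by edgeR at day 0 or day 1, where 1 and 4 had an unadjusted P under 0.05, nor by DESeq2 or limma. The median of the list at day 7 was 0.31, against 0.11 over the members. Zfp521 fell in vehicle samples from 103.2, 107.5 and 110.7 CPM at day 0 to 14.3, 14.7 and 13.97 CPM at day 2 and 13.4, 9.24, 10.6 and 10.9 CPM at day 7. In C70 samples it stood at 24.3, 24.3, 23.5 and 25.3 CPM at day 2 and 24.7, 20.8, 21.1 and 26.2 CPM at day 7. C70 samples were above all vehicle samples on both days, with log2 fold changes of 0.76 (SE 0.083, adjusted P = 4.5e-09) and 1.08 (SE 0.082, adjusted P = 6.5e-12), while at day 1 the groups overlapped at 39.7 to 44.9 and 41.3 to 46.1 CPM.

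Zfp516 was at 39.2, 55.8, 53.2 and 52.8 CPM in day 7 vehicle and 67.5, 62.1, 78.8 and 69.6 CPM in day 7 C70 samples (log2 0.47, SE 0.072, adjusted P = 4.9e-06). Zfp395, linked to adipocyte commitment, was at 43.5 ± 2.8 and 57.2 ± 1.6 CPM (SD, n = 4 each) with a log2 fold change of 0.40. Zfp30, a KRAB protein known to act at a Pparg enhancer, was at 6.57 ± 0.62 and 8.67 ± 0.63 CPM (0.40). Zfp467 was at 19.5 ± 2.7 and 24.7 ± 0.49 CPM (0.34). Zfp423 was at 24.9 ± 2.3 and 30.2 ± 1.9 CPM, with a log2 fold change of 0.28 (adjusted P = 0.0017) under the fold threshold. Quantile normalization lost the day 7 calls of Zfp30 (0.23) and Zfp467 (0.29). That of Zfp467 was also lost without day 7 vehicle replicate 2 (0.30) or 3 (0.29), and the day 2 call of Zfp395 without day 2 vehicle replicate 1 (0.31). Of the other 4 listed members, Zfp407, Zfp217, Zfp638 and Zfp36 had log2 fold changes of 0.071, 0.089, 0.055 and 0.024 at day 7 and did not pass the test.

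Of the 10 listed members with known roles on RNA or ribosomes, none was called with C70 on any day by edgeR, DESeq2 or limma with all libraries, with 1, 3, 7 and 3 at an unadjusted P under 0.05 at days 0, 1, 2 and 7. On these days edgeR called 5.89%, 13.6%, 16.9% and 14.3% of all genes higher and 3.09%, 7.8%, 13.6% and 4.85% lower. Without day 7 vehicle replicate 1, Zfp593, a ribosome biogenesis protein, was called higher at day 7 (0.45, adjusted P = 0.033). The ribosome collision sensor Zfp598 was at 73.7 ± 1.8 CPM with C70 and 87.0 ± 4.2 CPM with vehicle at day 2, without overlap (log2 −0.24, adjusted P = 6.5e-06), and fell short of the fold threshold. Zfp207 had lower values in every C70 sample than in every vehicle sample on all 4 days, at −0.094, −0.10, −0.17 and −0.12 on the log2 scale (adjusted P = 0.13, 0.051, 0.0012 and 0.019), all under the fold threshold. At day 2 it was at 229.3, 225.2 and 227.0 CPM in vehicle and 199.5, 218.5, 200.9 and 188.3 CPM in C70 samples.

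Of the 10 listed chromatin adaptors, 2 were higher at day 1, 2 higher and 1 lower at day 2, 3 higher at day 7 and 1 lower at day 0. Over all genes 13.6%, 16.9% and 14.3% were higher at days 1, 2 and 7, and 3.09% and 13.6% were lower at days 0 and 2. Zfp462, a partner of the H3K9 methyltransferase GLP, was at 20.3, 19.2 and 17.8 CPM in vehicle and 28.2, 25.8, 27.9 and 30.1 CPM in C70 samples at day 1 (log2 0.55, SE 0.12, adjusted P = 0.00057). At day 7 it was called at 0.57, but the groups overlapped, at 3.61, 8.34, 7.25 and 7.89 CPM in vehicle and 10.5, 7.69, 10.4 and 11.8 CPM in C70 samples. Zfp532, Zfp592 and Zfp687 are known partners of ZMYND8. Zfp532 was higher at day 1, at 50.3 ± 3.0 CPM (SD, n = 4) against 31.2 ± 3.3 CPM (SD, n = 3), a log2 fold change of 0.69 (adjusted P = 2.1e-08), and at day 2 (0.44). Zfp592 was higher at day 7 (0.34, adjusted P = 5.3e-06), with 48.7 to 62.2 CPM in vehicle and 66.2 to 74.5 CPM in C70 samples. That call fell under the fold threshold without vehicle replicate 1 (0.28) or C70 replicate 4 (0.32) of day 7. Zfp687 had −0.31 at day 2 (adjusted P = 0.00089), under the threshold. Zfp827, which binds NuRD, was lower at day 0 (93.6 ± 3.0 CPM with vehicle, 70.8 ± 2.7 CPM with C70, log2 −0.40) and higher at day 7 (6.47 ± 0.38 and 8.92 ± 0.87 CPM, log2 0.46), and the day 7 call was lost under quantile normalization (0.28). Zfp219 was lower at day 2 (−0.38, adjusted P = 2.5e-06).

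Among KRAB proteins known for imprints or retroelements, 6 of the 7 listed genes were members. Zfp57 is described above. Zfp445, which works beside it at imprints, was at 82.0 and 81.0 CPM at day 0 and 88.7 and 97.5 CPM at day 7, and did not pass the test on any day. Zfp809, which silences murine leukemia proviruses, was at 14.2, 14.4 and 13.9 CPM in vehicle and 12.5, 10.5, 10.1 and 12.1 CPM in C70 samples at day 2 (−0.32, adjusted P = 0.011). That fold sat on the threshold, and the call was lost without any 1 of 6 libraries, at −0.31 to −0.28 (day 1 C70 replicate 1, day 2 vehicle replicate 2, day 2 C70 replicates 2 and 3, day 7 vehicle replicate 1 and day 7 C70 replicate 2). The fit on genes of 5 CPM or more lost it too (−0.31). Zfp932 was higher at day 7 (0.33, adjusted P = 0.0070), which fell under the fold threshold without vehicle replicate 4 (0.31), C70 replicate 1 (0.31) or C70 replicate 4 (0.29) of day 7 and was lost under quantile normalization (0.16). Zfp568, a repressor of a placental Igf2 transcript, and Zfp961 were not called with C70. In vehicle samples 4 of the 6 fell from day 2 to day 7, where 26.7% of all genes fell.

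Some members changed their C70 difference from one day to the next, tested as an interaction in the same fit. From day 0 to day 1 the difference rose for 20 members and fell for 5 (8.68% and 5.23% of all genes), from day 1 to day 2 for 10 and 4 (7.36% and 6.49%), and from day 2 to day 7 for 21 and 8 (11.9% and 9.04%). Of the first 20, 15 had a KRAB pattern. The first count was 12 without day 1 vehicle replicate 2 and 13 without day 0 vehicle replicate 3, and the 5 were 2 or 3 without any 1 of 12 of the 14 day 0 and day 1 libraries. The 10 of the second interval were 6 without day 2 vehicle replicate 1, and its 4 were 2 without day 1 vehicle replicate 2 or 3. Zfp469, named for its human counterpart in corneal collagen disease, went from 36.2, 31.9 and 38.0 CPM in vehicle and 26.6, 32.9, 28.5 and 29.9 CPM in C70 samples at day 1 to 7.56, 9.05 and 6.55 CPM and 15.05, 11.6, 15.2 and 14.8 CPM at day 2. The groups overlapped at day 1 and were separate at day 2, and the difference moved by 1.13 (SE 0.18, adjusted P = 2.4e-05). Zfp618, a partner of UHRF2, was higher at day 1 (0.51, lost under quantile normalization at 0.43, adjusted P = 0.069) and day 7 (1.07, SE 0.16, adjusted P = 2.2e-06), with 1.51, 4.28, 3.87 and 4.11 CPM in vehicle and 7.56, 5.86, 8.03 and 7.65 CPM in C70 samples at day 7. The KRAB gene Zfp9 overlapped at days 0 and 1, was higher in every C70 sample at day 2 (0.30, under the fold threshold) and stood at 20.7 ± 2.1 and 35.4 ± 1.5 CPM (SD, n = 4 each) at day 7 (log2 0.77, SE 0.069, adjusted P = 1.8e-10), and its difference grew by 0.48 from day 2 to day 7 (adjusted P = 0.00061).

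**Figure D5:**
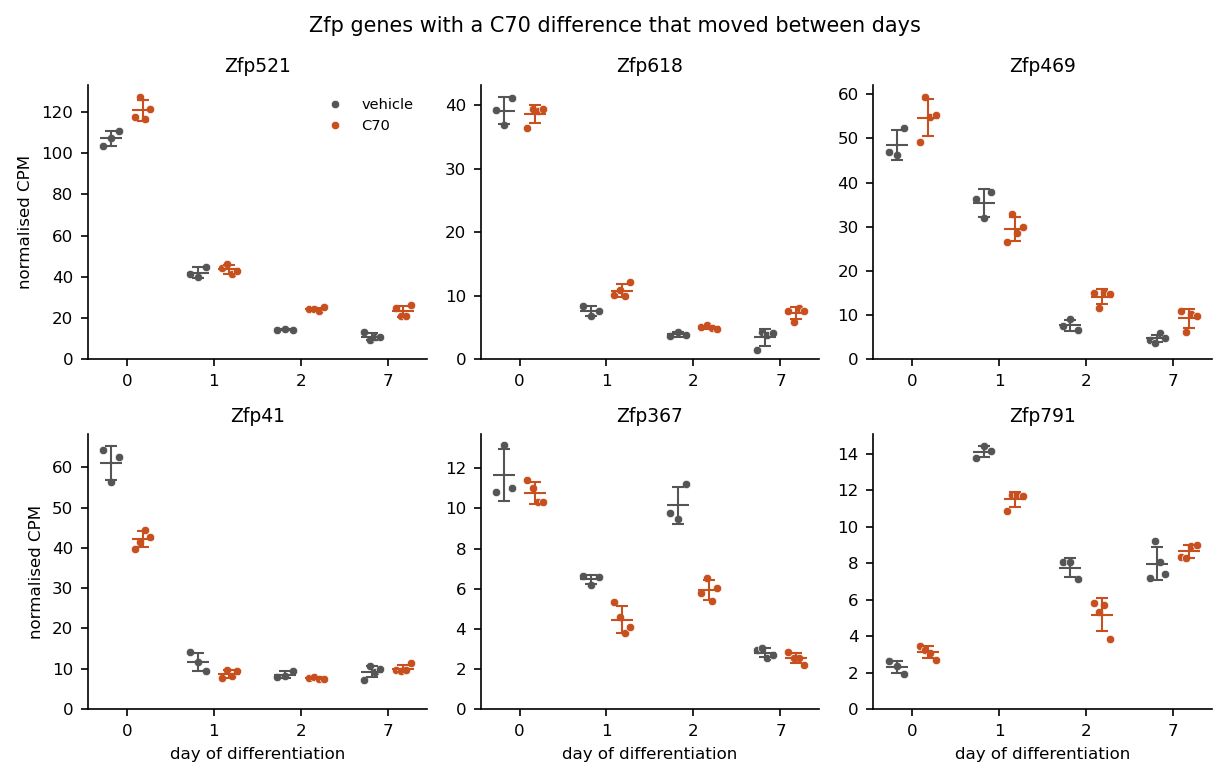
Normalised CPM of 6 Zfp genes whose C70 difference moved or was lower, by day, with each sample as a point and lines for the mean and SD of vehicle (grey) and C70 (orange) samples. Zfp521 and Zfp469 separate at days 2 and 7, Zfp41 at day 0 and Zfp367 at days 1 and 2.

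Neighbouring genes did not all move alike. Members in runs of 3 or more gave 17 higher of 100 at day 7, and members outside such runs gave 30 higher and 1 lower of 129, against 14.3% higher and 4.85% lower over all genes. In the 14-gene run on chromosome 17, all 14 fold changes were below 0 at day 0, as were 152 of the 229 members and 5991 of the 11959 genes. Of the 14, Zfp52 and Zfp53 were called lower (−0.36 and −0.40), where 3.09% of all genes were. At day 7 Zfp677, Zfp760, Zfp948 and Zfp994 were higher, with a median of 0.12 over the run. At day 7 Zfp948 was at 15.3 ± 1.6 and 21.7 ± 2.8 CPM (SD, n = 4 each, log2 0.51, adjusted P = 3.0e-05). The day 7 call of Zfp760 (0.35) was lost without vehicle replicate 1 (0.28) or C70 replicate 3 (0.32) of that day, and quantile normalization lost those of Zfp760 (0.20), Zfp677 (0.26) and Zfp994 (0.28). In a run of 5 genes at chr7:24081924-24301232, of which 4 carried a KRAB pattern, Zfp61, Zfp93 and Zfp111 were higher at day 2, with log2 fold changes of 0.69, 0.56 and 0.58. On that day 16.9% of all genes were higher. Both this run and the 14-gene run were named because they held 3 or more calls on a day. At day 2 Zfp111 was at 8.69 ± 0.21 CPM (SD, n = 3) in vehicle and 12.96 ± 1.3 CPM (SD, n = 4) in C70 samples. In the run of 10 at chr7:29768552-30169750 all 10 fold changes were above 0 at day 7, and 2, Zfp30 and Zfp260 (0.34), were called. Above 0 on that day were 166 of the 229 members, but only 3 of the 8 in the run at chr7:127233061-127885996. Zfp52 and Zfp260 were chosen after their values were seen. Zfp667, elsewhere on chromosome 7, was lower at day 2 (−0.54) and higher at day 7 (0.33), the latter with overlapping groups and lost when any 1 of vehicle replicates 3 and 4 and C70 replicates 1 and 3 of day 7 was left out, at 0.29 to 0.30, and under quantile normalization (0.17).

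The partners of the KRAB proteins were also counted. Of 30 corepressor genes in the table, the percentages lower on the 4 days were 3.33, 13.3, 10 and 3.33, against 3.09, 7.8, 13.6 and 4.85 over all genes. By edgeR 0, 0, 0 and 1 of the 30 were higher, against 5.89%, 13.6%, 16.9% and 14.3% of all genes, with 12, 10, 18 and 9 of the 30 at an unadjusted P under 0.05 in either direction. DESeq2 gave the same counts higher, and limma on quantile normalized values gave 0 on every day. Trim28, the shared corepressor, was at 215 and 222 CPM at day 0 and 124 and 122 CPM at day 7 in vehicle and C70 samples, and was not called on any day. In vehicle samples 12 of the 30 fell from day 2 to day 7 (26.7% of all genes). Of 14 genes in a list of Zfp36 relatives and subunits of the Ccr4-Not deadenylase, 1, 2, 2 and 1 were higher on the 4 days (5.89%, 13.6%, 16.9% and 14.3% of all genes) and 1 was lower, at day 1. Zfp36l2 was higher on all 4 days, with log2 fold changes of 0.45, 0.51, 0.93 and 0.66. Zfp36l1 was higher at days 1 and 2 (0.39 and 0.71) and was not called at days 0 and 7 (−0.13 and 0.29). Of the other zinc finger families, 6 of 13 Klf genes, 1 of 32 Zbtb genes and 1 of 17 Zkscan and Zscan genes were higher at day 1 (13.6% of all genes), and 4 Klf genes and 2 Zkscan and Zscan genes were higher at day 7 (14.3% of all genes). At day 2, 3 Zbtb genes and 1 Klf gene were lower (13.6% of all genes), and 5 Klf genes and 3 Zkscan and Zscan genes were higher (16.9%). By edgeR 0 of the 32 Zbtb genes were higher at days 2 and 7, with 11 and 6 at an unadjusted P under 0.05 in either direction. At day 0, 3 Klf genes, 1 Zbtb gene and 1 Zkscan or Zscan gene were higher (5.89% of all genes). On that day 1 Klf gene and 1 Zbtb gene were lower (3.09%), and at day 1 1 Zbtb gene was lower (7.8%).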

How the data were processed

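RNA of 29 samples of 3T3-L1 cells in 8 groups, set by day and by C70 or vehicle in the labels, was sequenced from strand-specific poly(A) libraries. The authors' paper instead speaks of total RNA-sequencing, and which of these holds cannot be settled here. Alignment by the authors used STAR 2.7.2a, the GRCm38 genome and Ensembl annotation, and they deposited a filtered table of counts for 11959 genes. Despite a name that calls it normalized, it holds raw whole-number counts, with column totals of 16320275 to 24037170. The counting program, its use of strand and the filter are not given in the sources used here, and edgeR 3.26.8 is named in the submitters' processing notes. Every column matched a sample. No replicate pair agreed within sampling noise (chi-square per degree of freedom 2.67 to 47.1).

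Symbols, coordinates and coding sequences came from GENCODE M21 (GRCm38) and promoters from RefSeq (GRCm38.p6). Fingers were counted in translated coding sequence as the spacing C, 2 to 4 residues, C, 12 residues, H, 3 to 5 residues, H. A KRAB pattern was a match to short KRAB A box motifs in the first 250 residues, which can miss or add genes. The RefSeq protein table planned for this was not used here.

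Counts were scaled by TMM (factors 0.898 to 1.08) and tested with edgeR 4.0.16 in R 4.3.3 by the quasi-likelihood F test, all 8 groups in 1 fit without covariates, with Benjamini-Hochberg adjustment over the 11959 genes in each of 10 contrasts. The common biological coefficient of variation was 0.0594. A call needed an adjusted P under 0.05 and a fold change over 1.25. Counting depth limits genes of a few CPM most. The steps were tested on simulated data with known changes before use. Alternatives were RLE factors, limma 3.58.1 on quantile normalized log2 CPM (prior count 2), DESeq2 1.42.0, other filters, thresholds and member rules, a replicate block and leaving out each sample. Tables and plots used Python 3.11.15 with pandas 2.3.3, numpy 2.4.6 and matplotlib 3.10.9.

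Genes were named by a rule: members of 4 lists of known roles; per C70 day the 6 largest called rises and falls; per vehicle step the 4 largest each way; per interaction the 3 largest each way; the genes beside the level limit; the 3 of highest level; members called in 1 direction on all 4 days; and neighbours in runs with 3 or more calls. It named 72 genes. Zfp142, Zfp330 and Zfp839, named only for their finger counts, and Zfp719, Zfp715, Zfp52 and Zfp260 fall outside it and were chosen after the values were seen. The members and lists were chosen with earlier results of these data known.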

Additional observations from a re-analysis of the deposited data

Results flagged for a closer look

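Samples far from the rest of their group, by the gap to the nearest sample against the group's range, were found in 23 of 375 groups of 4 that were examined. Chance gives about 1 in 20 groups, or 18.75 here. Day 7 vehicle replicate 1 was one of these for the mean log2 level over all members (−0.58) and over members without a KRAB pattern (−0.44), relative to day 0 vehicle, and for Zfp618 (1.51 CPM), Zfp644 (32.9 CPM) and Zfp14 (4.19 CPM). Day 1 C70 replicate 3 was far from its group in the mean over members (−0.079).

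The other far values were single genes. In day 1 C70 replicate 1 they were Zfp326 at 62.4 CPM, Zfp207 at 201.4 CPM, Zfp791 at 10.9 CPM and Zfp608 at 40.5 CPM. In day 1 C70 replicate 2 they were Zfp281 at 35.5 CPM and Zfp809 at 15.5 CPM. In day 0 C70 samples they were Zfp618 at 36.4 CPM and Zfp202 at 9.36 CPM in replicate 1, and Zfp420 at 4.02 CPM and Zfp692 at 4.52 CPM in replicate 3. In day 2 C70 samples they were Zfp53 at 9.07 CPM in replicate 1 and Zfp469 at 11.6 CPM in replicate 2. At day 7 they were Zfp961 at 19.1 CPM in vehicle replicate 2, Zfp658 at 2.79 CPM in C70 replicate 1, Zfp592 at 66.2 CPM and Zfp445 at 86.7 CPM in C70 replicate 2, and Zfp747 at 3.80 CPM in C70 replicate 4.

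The C70 difference of some genes changed between days by the interaction test. From day 0 to day 1 it rose by 0.99 for Zfp658, 0.88 for Zfp57 and 0.67 for Zfp462, and it changed by −0.72 for Zfp791, −0.43 for Zfp469 and −0.42 for Zfp367. From day 1 to day 2 it rose by 1.13 for Zfp469, 0.71 for Zfp521 and 0.55 for Zfp111, and it changed by −0.69 for Zfp810, −0.46 for Zfp503 and −0.37 for Zfp710. From day 2 to day 7 it rose by 0.88 for Zfp667, 0.73 for Zfp618 and 0.71 for Zfp791, and it changed by −0.65 for Zfp658, −0.57 for Zfp608 and −0.56 for Zfp202. In the first interval the call of Zfp469 (adjusted P up to 0.11, at −0.38 without day 1 vehicle replicate 3) and that of Zfp367 (up to 0.094, at −0.37 without day 0 vehicle replicate 1) were lost when one of most day 0 and day 1 libraries was left out, and that of Zfp469 under quantile normalization (−0.41, adjusted P = 0.15). The call of Zfp710 was lost without any 1 of 6 libraries (day 1 vehicle replicates 2 and 3, day 1 C70 replicates 1 and 3 and day 2 vehicle replicates 1 and 3, −0.36 to −0.30), and that of Zfp618 in the last interval without day 2 vehicle replicate 2 (0.65, adjusted P = 0.064).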

How the results depend on the processing

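RLE factors, DESeq2, a fit on genes of 5 CPM or more and the replicate block moved no count or median of the members beyond 1.5 times or 1 SD of the sample means (0.032). Quantile normalization gave 7 members lower at day 1 with a median of −0.0077, 15 lower at day 2 with a median of 0.039, 20 higher and 5 lower at day 7 with a median of 0.023, and a median of 0.012 for vehicle day 1 against day 0. For the change of the C70 difference it gave 13 higher with a median of 0.083 from day 0 to day 1, 6 higher from day 1 to day 2 and a median of 0.026 from day 2 to day 7.

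With no fold change threshold, 8, 41, 60 and 72 members were higher on the 4 days and 20, 10, 26 and 14 lower. The shares higher were 3.49%, 17.9%, 26.2% and 31.4% of the members and 10.9%, 21%, 25.3% and 22.3% of all genes. The shares lower were 8.73%, 4.37%, 11.4% and 6.11% of the members and 8.91%, 19.7%, 25.4% and 18.8% of all genes. In vehicle samples, also with no threshold, 56 rose at the first step, 25 rose and 107 fell at the second and 40 rose at the last. In either direction 140, 132 and 151 members passed at these steps, and 8385, 7376 and 8681 of the 11959 genes. Under the same setting the C70 difference rose for 32 members and fell for 14 from day 2 to day 7. It moved in either direction for 3628 of all genes. With a fold change over 1.5, 0, 4, 10 and 8 members were higher on the 4 days and 1, 0, 3 and 0 lower. Over all genes 2.75%, 7.48%, 9.88% and 7.93% were then higher and 0.527%, 1.64%, 4.67% and 0.87% lower. The members gave 0%, 1.75%, 4.37% and 3.49% higher and 0.437%, 0%, 1.31% and 0% lower. Rises and falls at the vehicle steps were 9 and 30, 4 and 25, and 8 and 39. Those of the changes of the C70 difference were 3 and 1, 2 and 1, and 6 and 1. The shares of all genes beside these rises and falls are not given here. With all 297 Zfp genes, 20 were lower at day 0, 24 higher at day 1 and 13 lower at day 2. These were 6.73%, 8.08% and 4.38% of them, against 3.09%, 13.6% and 13.6% of all genes. The median of the second vehicle step was −0.21. With a limit of 10 CPM (167 members), 6 were lower at day 0, 2 at day 1 and 3 at day 2. These were 3.59%, 1.2% and 1.8% of them, against 3.09%, 7.8% and 13.6% of all genes. The median of the first vehicle step was −0.012. The C70 difference fell for 3 from day 0 to day 1 (5.23% of all genes) and rose for 11 from day 2 to day 7 (11.9% of all genes).

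Leaving out 1 sample at a time gave 3 to 4, 13 to 21, 27 to 34 and 38 to 49 members higher on the 4 days. It gave 10 to 14, 2 to 5, 7 to 10 and 1 to 2 members lower, and 0.071 to 0.16 for the day 7 median. The vehicle medians ranged from −0.056 to −0.014, −0.21 to −0.16 and −0.20 to −0.12. From day 0 to day 1 the C70 difference rose for 12 to 23 members and fell for 2 to 5, with a median of 0.080 to 0.14; from day 1 to day 2 it rose for 6 to 14 and fell for 2 to 5; and from day 2 to day 7 it rose for 17 to 27 and fell for 7 to 12.

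The replicate numbers are shared between groups, but deviations of the 13 same-numbered pairs correlated at only −0.20 to 0.21, so the numbers were not taken as pairs. With the replicate block, 46 members were higher and 1 lower at day 7, and of the 229 calls of named genes 1 was lost (Zfp57 from day 2 to day 7, −0.53, adjusted P = 0.051) and 2 were gained. Quantile normalization lost 32 of the 229. The Zfp57 call (−0.55 in the main fit) was also lost in edgeR without single libraries, at adjusted P from 0.057 to 0.099. At day 2 these were vehicle replicates 2 and 3 and C70 replicates 3 and 4. At day 7 they were vehicle replicates 1, 2 and 4 and C70 replicates 1 and 2. Of 700 results for named genes none reversed as a call under any alternative. The cause of these shifts was not tested. Genes of a few CPM have few counts, and their folds are the least precise.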
